A study of Mus musculus with 87 samples.

Results

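A set of 10 BMP-pathway genes was followed through mouse embryonic stem cells (ESC) and neuronal precursors (NP) that differ in Suz12, a core subunit of Polycomb repressive complex 2 (PRC2), the enzyme complex that methylates lysine 27 of histone H3 (the trimethylated form is H3K27me3). They are the ligand genes Bmp2, Bmp4, Bmp5 and Bmp7, the inhibitor-of-differentiation genes Id1, Id2, Id3 and Id4, and the homeobox genes Msx1 and Msx2. The rule takes them by name and uses no measured value, although the set was proposed with earlier results of these data known, and all 10 of 10 were found among the 26171 gene symbols of each of the 13 RNA-seq comparison tables.

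Suz12 exon 4 can be included, giving a long isoform (L), or skipped, giving a short isoform (S). The ESC were of the line labelled 129-B13 and grew in 20% serum with LIF. The ESC groups were wild type (WT, 3 libraries), CSex4, in which exon 4 is always included (2), Deltaex4, in which exon 4 is deleted (2), and the full Suz12 knock-out KO (3). In KO-L and KO-S (2 each) the knock-out cells carried a rescue with the long or the short isoform. In KO-L3D and KO-S3D (2 each) the rescue, placed in the Rosa26 locus, carried in addition a mutation called 3D at position 196, after exon 4. NP received retinoic acid on day 4 and were harvested on day 8; there were 4 WT libraries and 2 each of KO, its KO-L and KO-S rescues, CSex4 and Deltaex4, with no 3D rescue. The sources used here do not say whether a group is 1 clone or several, so the p-values measure only the spread between these libraries, which may be technical. RNA came from bulk cultures, in which fewer cells of a type and less RNA per cell cannot be told apart.

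Bone morphogenetic proteins (BMPs) are secreted ligands of the TGF-beta family. They bind paired type I and type II serine/threonine kinase receptors, which phosphorylate Smad1, Smad5 and Smad9, and these enter the nucleus with Smad4. Id1, Id2 and Id3 are well-known direct targets of these Smads. Id proteins have a helix-loop-helix domain but no DNA-binding region, so they hold E proteins and other basic helix-loop-helix factors off DNA. In mouse ESC grown with serum and LIF, BMP signalling through Id genes is known to restrain neural differentiation. Msx1 and Msx2 encode homeodomain repressors that respond to BMP in the dorsal neural tube, neural crest and limb.

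Reads of each gene in each library were worked back from the deposited mean scaled counts (see the processing account), with 1 solution that fitted every table for each of the 20 pairs of gene and cell type. Levels are given as scaled reads, which are reads divided by the authors' size factor. They can be compared between libraries of 1 cell type, but not between ESC and NP or between genes. The deposited mean scaled counts summed to between 26085140 and 31499803 per table. Libraries are named by letters given here, which are not replicate numbers and pair nothing. Fold changes, standard errors (SE) and adjusted p-values are those of the authors' deposited tables unless said otherwise, and genes with an adjusted p below 0.05 are called.

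The deposited tables are named as paired. A fold change in them is therefore read as one between matched libraries, and it can differ from the ratio of group means, which is unpaired and is given where leaving out a library moves it. The sources used here do not say which libraries were matched. In the ESC tables with 5 libraries, genes with reads in WT library c alone had fold changes near 0, so c adds to the levels below but appears to add little or nothing to those fold changes.

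As a check of the labels, KO held less Suz12 RNA than WT: the authors' deposited tables give -1.82 ± 0.22 (log2, SE) for the ESC comparison and -2.14 ± 0.33 for the NP one. In ESC the rescues differed in Suz12 RNA: it was -1.05 ± 0.28 against WT in KO-L, -0.83 ± 0.27 in KO-S and -0.06 ± 0.42 in KO-S3D in the authors' deposited tables. In the libraries labelled KO-L3D it was -1.85 ± 0.28, about the value of KO, so Suz12 RNA does not bear out their label as a rescue, and KO-L3D below stands for the libraries so labelled. ESC Deltaex4 gave -1.28 ± 0.40, which was not called (adjusted p = 1.000). In NP both rescues held more Suz12 RNA than KO, by 1.35 ± 0.21 in KO-L and 1.09 ± 0.20 in KO-S in the authors' deposited tables. The part of these Suz12 levels in the values of the 10 genes was not tested. The labels give 1 ESC line, but the libraries did not match in Ddx3y, a gene of the Y chromosome. ESC WT library b held 17.97 scaled reads of Ddx3y against 774 and 506 in a and c, Deltaex4 held 2080 and 5.59, and KO-S held 2.21 and 28.45. In NP, Ddx3y ran from 93.4 in a KO-S library to 1775 in a WT library. The part of this difference in the results below was not tested. As a description, ESC WT b alone was left out of the unpaired ratios of group means, with every other library kept. For the 17 called ESC values, all 17 of 17 ratios kept their sign and 0 moved by over 1.5 times. Apart from Id2 in KO-L3D, the groups of these values did not overlap, so their sign could not turn by this. Both KO-S libraries, also low in Ddx3y, were among those kept, so this could not show the part of the Ddx3y difference. The paired fold changes behind the calls could not be refitted without it, so the calls themselves were not checked.

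Before the RNA results, the deposited ChIP-seq region lists show where these genes stand as PRC2 targets in ESC. The lists hold 2865 Suz12 and 6882 H3K27me3 regions. A Suz12 region lay within 2500 bases of the start of 7 of the 10 genes, against 7.53% of 27025 annotated genes. An H3K27me3 region did so at 9 of 10, against 14.5%. For Bmp2, Bmp7 and Id1 the gene end nearest to a region was used, as no start site was at hand for them. Msx1 (chr5:37820491-37824585, build GRCm38.p6) had the widest Suz12 region of the 10, 13835 bases, and Msx2 (chr13:53466881-53472780) the widest H3K27me3 region, 18272 bases. Bmp2, Bmp4, Bmp7 and Id3 also had both kinds of region over the gene end used.

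The Id genes differed in this. Id3 (chr4:136143822-136145392) had its start in a Suz12 region of 3722 bases and an H3K27me3 region of 7496 bases. Id4 (chr13:48261116-48266028) had its start in a Suz12 region, with the nearest H3K27me3 region 43 bases away. The start of Id2 (chr12:25093799-25096092) was 48 bases from an H3K27me3 region and 3481 bases from a Suz12 region. Id1 (chr2:152736251-152737410) had an H3K27me3 region of 2833 bases over it, and its nearest Suz12 region was 107794 bases away. Bmp5 (chr9:75775365-75900316) had neither near it: the nearest Suz12 region was 148857 bases and the nearest H3K27me3 region 150749 bases away. The headers of the region lists do not say which groups were compared or in which direction a region changed, so no change in binding is reported.

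The 250 bases before the start of 3 Id genes are shown because their region status differs, with Bmp5 as the gene without regions. Sequences are RefSeq, GRCm38.p6, written along the gene's strand. Capitals mark GGCGCC, a GC-rich motif known to be bound by Smad1 and Smad5, and CAGAC on either strand (GTCTG), the core Smad-binding box; the 2 motifs share no overlapping match here.
Id2 (minus strand, chr12:25096093-25096342): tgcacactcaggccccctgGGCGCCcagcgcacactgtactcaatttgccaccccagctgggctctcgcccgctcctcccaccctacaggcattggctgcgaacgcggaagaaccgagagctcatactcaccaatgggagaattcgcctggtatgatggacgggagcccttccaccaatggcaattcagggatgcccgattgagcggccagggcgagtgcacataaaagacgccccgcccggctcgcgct
Id3 (plus strand, chr4:136143572-136143821): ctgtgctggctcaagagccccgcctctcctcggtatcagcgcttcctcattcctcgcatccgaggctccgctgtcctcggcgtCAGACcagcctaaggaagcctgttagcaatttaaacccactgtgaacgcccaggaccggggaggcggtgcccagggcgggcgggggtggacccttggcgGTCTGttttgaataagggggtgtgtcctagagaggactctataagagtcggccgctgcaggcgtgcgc
Id4 (plus strand, chr13:48260866-48261115): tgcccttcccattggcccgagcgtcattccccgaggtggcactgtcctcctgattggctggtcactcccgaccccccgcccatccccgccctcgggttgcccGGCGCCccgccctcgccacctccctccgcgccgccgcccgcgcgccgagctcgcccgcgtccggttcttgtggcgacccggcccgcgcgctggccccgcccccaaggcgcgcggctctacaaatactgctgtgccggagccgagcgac
Bmp5 (plus strand, chr9:75775115-75775364): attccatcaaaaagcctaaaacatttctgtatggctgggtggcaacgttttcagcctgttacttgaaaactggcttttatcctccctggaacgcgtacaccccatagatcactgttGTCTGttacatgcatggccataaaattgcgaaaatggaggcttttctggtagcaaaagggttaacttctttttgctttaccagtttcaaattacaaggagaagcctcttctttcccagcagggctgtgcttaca
GGCGCC occurred once in Id2 and once in Id4, and CAGAC 2 times in Id3 and once in Bmp5. Of all 32851 promoters of this length, 9.59% held GGCGCC and 42.2% held CAGAC. The dinucleotide CG occurred 18 times in Id2 and in Id3, 35 times in Id4 and 4 times in Bmp5, against a median of 6 over all promoters. The 35 of Id4 were exceeded by 2.58% of promoters. Promoters were matched for 7 of the 10 genes; the other 3 windows, of Bmp4, Msx1 and Msx2, held neither motif and had 11, 20 and 16 CG.

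Across the 13 tables, 37 of the 130 member values were called, and their number differed widely between genotypes. In ESC, 3 members were called in CSex4 against WT (2.41% of all genes tested), all higher (1.72% of all genes). None of the 10 was called in Deltaex4 (0% of all genes; at an unadjusted p under 0.05, 0 members and 135 genes). In KO 5 were called (18.3% of all genes), all higher (11.0%). Of the rescues, KO-L had 1 called member (2.23%), higher (1.46%), and KO-S had 2 (7.91%), both lower (3.63%). KO-L3D had 5 (18.3%), all higher (8.22%), and KO-S3D had 1 (3.23%), higher (2.05%).

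In NP, 1 member was called in CSex4 against WT (5.53% of all genes), lower (1.45%). None was called in Deltaex4 (0.0809% of all genes; at an unadjusted p under 0.05, 1 member, Msx2, and 398 genes). In KO against WT 3 were called (21.4%), 2 higher (11.6%) and 1 lower (9.85%). The remaining NP tables take KO as the reference. Against it 6 members were called in WT (32.9%), 3 higher (15.6%) and 3 lower (17.3%). KO-L had 7 (24.7%), 3 higher (10.9%) and 4 lower (13.8%), and KO-S had 3 (34.5%), 2 higher (16.4%) and 1 lower (18.0%). The share of the 10 genes was above that of all genes in ESC CSex4, KO, KO-S and KO-L3D and in NP WT and KO-L against KO, a description with no test. It was near the share of all genes in NP KO against WT and in NP KO-S against KO. In ESC KO-L, ESC KO-S3D and NP CSex4 the count was 1, too few to be read against it.

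**Figure D1:**
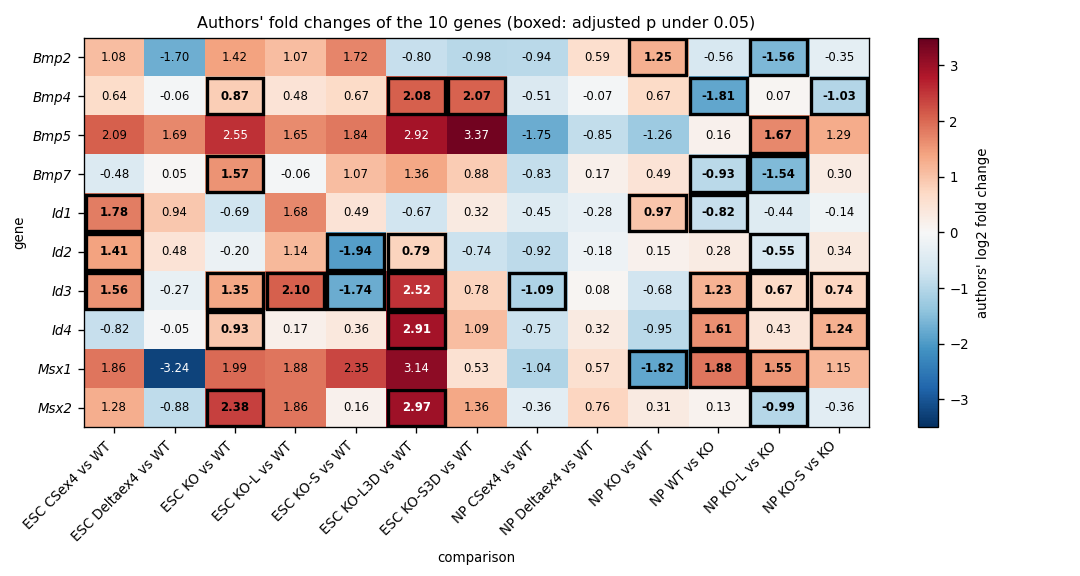
The authors' log2 fold change of each of the 10 genes (rows) in each of the 13 comparisons (columns), red higher and blue lower in the first-named group, with boxes at an adjusted p under 0.05. Id3 is boxed in 9 of the 13 columns, on both sides of 0, and both Deltaex4 columns hold no box.

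Among the ligands, Bmp4, the ligand most used to study BMP signalling in ESC, rose in the knock-out, in KO-S3D and in the libraries labelled KO-L3D. Bmp4 stood at 369, 377 and 248 scaled reads in the 3 WT libraries and at 490, 829 and 521 in KO, with no overlap. It reached 1721 and 1448 in KO-L3D and 1811 and 1347 in KO-S3D, above every other ESC library. Log2 fold changes against WT in the authors' deposited tables were 0.87 ± 0.32 in KO (adjusted p = 0.0368), 2.08 ± 0.33 in KO-L3D (adjusted p = 2.75e-08) and 2.07 ± 0.40 in KO-S3D (adjusted p = 5.70e-05). The unmutated rescues held 655 and 406 (KO-L) and 572 and 612 (KO-S), each above WT in every library, but neither was called, with log2 fold changes of 0.48 ± 0.39 and 0.67 ± 0.35. In CSex4 the libraries stood at 342 and 972, 1 within the WT range and 1 far above it.

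Bmp7, a ligand expressed in many epithelia and in the roof plate, stood at 133, 79.8 and 116 scaled reads in ESC WT and at 375, 386 and 223 in KO. Its log2 fold change of 1.57 ± 0.35 had an adjusted p of 1.54e-04 in the authors' deposited table, and the groups did not overlap. KO-L libraries, at 92.9 and 104, lay inside the WT range, whereas KO-S libraries, at 225 and 209, lay above it without a call (adjusted p = 0.202). In each 3D rescue 1 library was at the WT level or near it and the other well above: 149 and 469 in KO-L3D, 89.5 and 394 in KO-S3D. Neither passed the test (adjusted p = 0.0933 and 0.567 in the authors' deposited tables).

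Bmp2, the closest relative of Bmp4, was called in no ESC comparison. The WT libraries themselves ran from 9.53 to 90.8 scaled reads, and 10 of the other 15 ESC libraries lay inside that range. Bmp5 had 0 to 9 reads per ESC library, too few for a fold change to be read; a count of 0, as in WT libraries b and c, allows up to 3 reads.

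**Figure D2:**
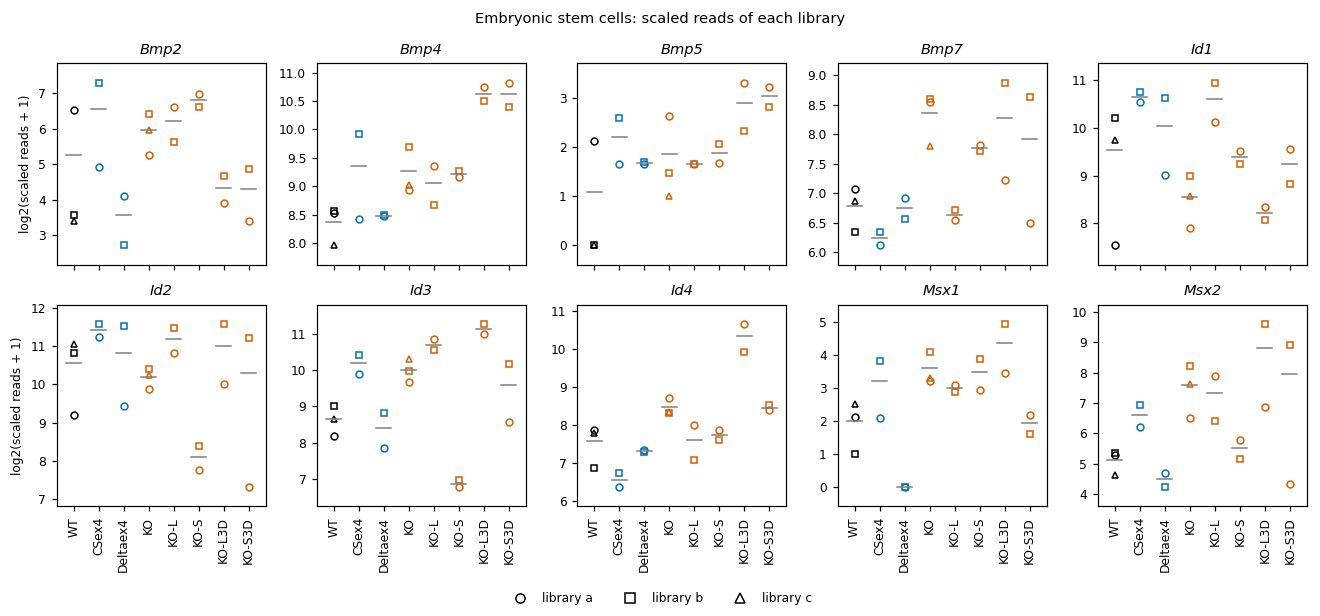
Scaled reads of the 10 genes in each ESC library on a log2(scaled reads + 1) axis, by genotype; symbols are libraries a to c, grey bars the log2 of the group mean plus 1, black WT, blue the exon 4 lines, orange the knock-out and its rescues. Bmp4 is highest in the 4 libraries with a 3D rescue, and Id2 and Id3 are lowest in KO-S, apart from 1 KO-S3D library that lies lower still for Id2.

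In NP, Bmp7 and Bmp2 were the 2 of 4 ligands that differed between the rescue isoforms, against 10.3% of all genes. Bmp7 stood at 2059 and 1877 scaled reads in NP KO, at 667 and 689 in KO-L and at 2770 and 2122 in KO-S. Every KO-L library was thus below, and every KO-S library above, the KO libraries, and the 4 WT libraries (1764, 1112, 1081 and 982) lay between KO-L and KO. KO-L against KO gave a log2 fold change of -1.54 ± 0.23 (adjusted p = 3.12e-10) in the authors' deposited table; KO-S gave 0.30 ± 0.20 (adjusted p = 0.238). The difference between the 2 rescues was -1.84 ± 0.30 (95% interval -2.43 to -1.25, adjusted p = 8.06e-08).

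Bmp2 was likewise lower in KO-L than in KO and KO-S, at 539 and 523 scaled reads in KO, 197 and 165 in KO-L and 386 and 452 in KO-S. It fell in KO-L against KO by 1.56 ± 0.33 on the log2 scale (adjusted p = 2.26e-05, the authors' deposited table), and the 2 rescues differed by -1.21 ± 0.43 (adjusted p = 0.0449). Against WT libraries a and b, at 131 and 375, Bmp2 rose in NP KO by 1.25 ± 0.49 (adjusted p = 0.0491). The ratio of group means behind that call went from 1.07 to 2.02 (log2) without WT b. WT c and d, at 285 and 450, gave no call against the same 2 KO libraries (WT against KO -0.56 ± 0.37, adjusted p = 0.256 in the authors' deposited table).

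For Bmp4 in NP the call in KO differed with the WT pair used. KO held 365 and 456 scaled reads, WT a and b 228 and 288, and WT c and d 135 and 101. WT c and d against KO gave -1.81 ± 0.43 (adjusted p = 2.02e-04), and KO against WT a and b gave 0.67 ± 0.46 (adjusted p = 0.334), both in the authors' deposited tables. KO was the higher group with both pairs and overlapped neither. The rescues parted here in the other direction from Bmp7: KO-S, at 231 and 174, was lower than KO by 1.03 ± 0.32 (log2 fold change -1.03, adjusted p = 0.00656), whereas KO-L, at 502 and 363, overlapped it. The 2 rescues differed by 1.09 ± 0.46, which did not pass the threshold. KO-L against WT c and d differed by 1.88 ± 0.54 (adjusted p = 0.00693) when each was set against KO.

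Bmp5 was well above the counting floor in NP, with 30 to 281 reads per library. KO stood at 51.1 and 63.9 scaled reads and KO-L at 202 and 166, a log2 fold change of 1.67 ± 0.51 (adjusted p = 0.00656, the authors' deposited table). KO-S, at 113 and 175, was also above KO in both libraries, with an adjusted p of 0.0523. The 2 rescues differed by 0.38 ± 0.75 (95% interval -1.09 to 1.85, adjusted p = 0.876). WT spread from 50.2 to 251, and 8 of the other 10 NP libraries lay inside that range.

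**Figure D3:**
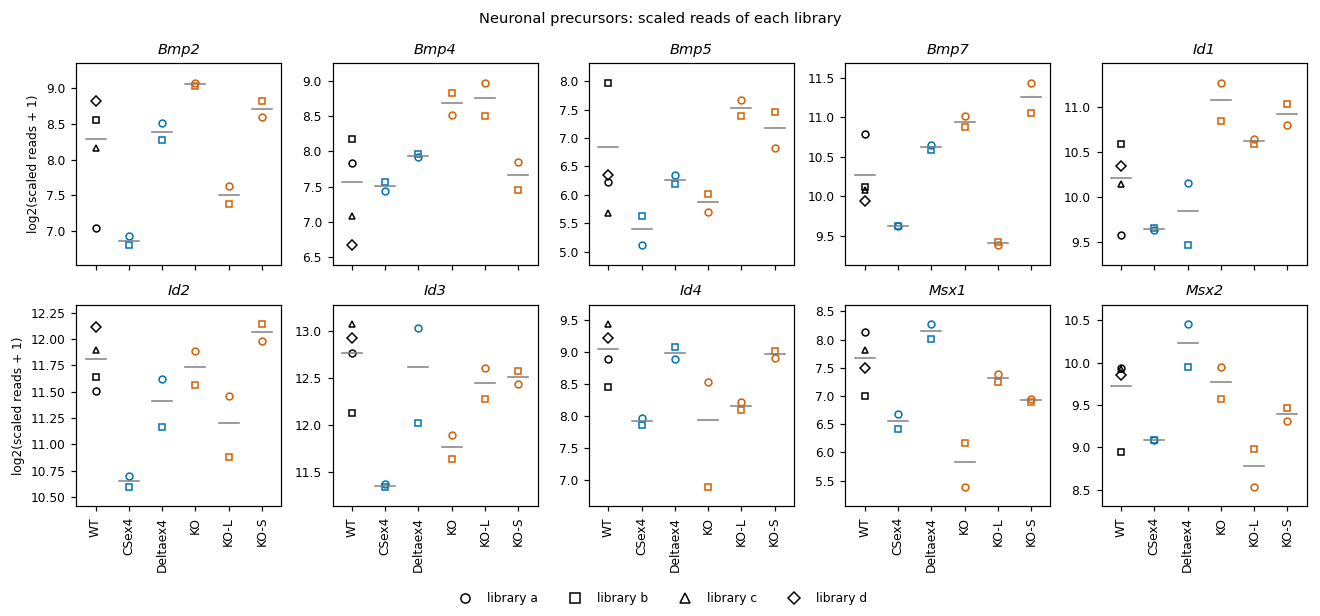
Scaled reads of the 10 genes in each NP library on a log2(scaled reads + 1) axis, by genotype; symbols are libraries a to d, grey bars the log2 of the group mean plus 1, colours as for ESC. WT a and b served as the reference for CSex4, Deltaex4 and KO, and WT c and d in the table of WT against KO; Bmp2 and Bmp7 are lower in KO-L than in KO and KO-S.

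The Id genes made up 20 of the 37 calls, and Id3 alone 9. The members were not equally easy to call, so these counts do not rank them. Id3 had 99 to 3056 reads per ESC library, Bmp5 0 to 9 and Msx1 0 to 37. In ESC, Id3 stood at 292, 518 and 405 scaled reads in WT. It was above that range in every library of CSex4 (956 and 1375), KO (808, 1011 and 1263), KO-L (1845 and 1491) and KO-L3D (2036 and 2463), and below it in both KO-S libraries (109 and 123). Log2 fold changes against WT in the authors' deposited tables were 1.56 ± 0.41 in CSex4 (adjusted p = 0.0125), 1.35 ± 0.30 in KO (adjusted p = 1.34e-04), 2.10 ± 0.33 in KO-L (adjusted p = 3.15e-07) and 2.52 ± 0.33 in KO-L3D (adjusted p = 2.70e-12). In KO-S Id3 fell by 1.74 ± 0.43 (adjusted p = 0.00147). Deltaex4, at 230 and 450, overlapped WT.

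The long- and short-isoform rescues thus stood on opposite sides of WT for Id3. Both rest on the same WT libraries, so the SE of their difference, which sets the shared part to 0, is too wide rather than too narrow. KO-L exceeded KO-S by 3.84 ± 0.54 on the log2 scale (95% interval 2.78 to 4.90, adjusted p = 1.21e-09; 3.94% of all genes differed between these rescues). KO-S also differed from KO itself, by -3.10 ± 0.52 (adjusted p = 8.49e-07; 3.76% of all genes), whereas KO-L differed from KO by 0.74 ± 0.45 (95% interval -0.13 to 1.62), with no member called (0.589% of all genes; 2 members at an unadjusted p under 0.05). With the 3D mutation the short rescue held 382 and 1158, the first library inside the WT range and the second above it. KO-S3D exceeded KO-S in Id3 by 2.52 ± 0.70 (adjusted p = 0.0455; 0.732% of all genes differed).

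Id2, like Id3, was lower in KO-S than in WT and in KO-L. WT stood at 586, 1807 and 2123 scaled reads, with library a far below the others. Both KO-S libraries, at 214 and 332, were lower than all of these, and the log2 fold change was -1.94 ± 0.44 (adjusted p = 3.91e-04, the authors' deposited table). KO-L stood at 1800 and 2853, a fold change of 1.14 ± 0.44 that was not called (adjusted p = 0.190). KO-L exceeded KO-S by 3.09 ± 0.62 (adjusted p = 9.60e-05). CSex4, at 2424 and 3058, was above every WT library, with 1.41 ± 0.43 (adjusted p = 0.0454). KO, at 943, 1356 and 1210, lay inside the WT range, and KO-S differed from it by -1.74 ± 0.56, which just missed the threshold (adjusted p = 0.0515).

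The 3D rescues split by library in Id2: 1032 and 3058 scaled reads in KO-L3D, and 159 and 2363 in KO-S3D. The KO-L3D value was called at 0.79 ± 0.30 (adjusted p = 0.0447, the authors' deposited table). The unpaired ratio of group means over all 3 WT libraries was 0.44, and it turned to -0.54 without library b of KO-L3D, so the direction of that ratio rests on 1 library. In KO-S3D the SE reached 1.79, and no direction can be read. Library b of each 3D group, a letter that does not match the 2 groups, was the higher of the 2 for Bmp2, Bmp7, Id2, Id3 and Msx2. It was the lower for Bmp4, Bmp5 and Id1, and for Id4 and Msx1 the 2 groups went different ways.

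Id1, often read as the first BMP target, followed another course. WT stood at 185, 1185 and 854 scaled reads, a wide spread, and 11 of the other 15 ESC libraries lay inside it. CSex4, at 1498 and 1730, was above WT and rose by 1.78 ± 0.52 (adjusted p = 0.0314, the authors' deposited table). KO stood at 237, 511 and 380 and was not called (-0.69 ± 0.48, adjusted p = 0.362). KO-L stood at 1122 and 1981, with an SE of 1.32, and KO-L3D at 324 and 269, neither called. Id1 was thus not called in KO or KO-L3D, where Id3 was; the difference between the 2 genes was not tested.

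Id4, which is a neural-lineage Id gene, stood at 234, 117 and 223 scaled reads in ESC WT. It reached 1605 and 966 in the libraries labelled KO-L3D, above every other ESC library, with a log2 fold change of 2.91 ± 0.35 (adjusted p = 3.92e-14, the authors' deposited table). KO, at 418, 321 and 322, rose by 0.93 ± 0.34 (adjusted p = 0.0386). KO-L and KO-S overlapped WT, and KO-S3D, at 336 and 366, lay above it without a call (adjusted p = 0.313). KO-L3D exceeded KO-L by 2.74 ± 0.66 in Id4 (adjusted p = 0.00266) and by 1.61 ± 0.51 in Bmp4 (adjusted p = 0.0401); these were the 2 members that differed, against 4.88% of all genes. KO-S3D and KO-S differed in Bmp4 by 1.40 ± 0.53 (95% interval 0.36 to 2.44), which was not called (adjusted p = 0.358). CSex4 libraries, at 82.5 and 105, were below every WT library, with an adjusted p of 0.629. The median shift of all genes with a mean scaled count of at least 100 was -0.15 in the KO-L3D table.

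Markers of other cell types moved in the same ESC libraries, in the authors' deposited tables. Of all genes, 18.3% were called in each of KO and KO-L3D, 2.23% in KO-L, 7.91% in KO-S and 3.23% in KO-S3D. The lists are short, so a count of 1 is not read against these shares. In KO, 2 of 2 neural crest markers rose (Sox10, 2.10 ± 0.69, and Foxd3, 1.87 ± 0.21), with 2 of 4 of roof plate (Lmx1a, 3.26 ± 0.65, and Wnt3a, 3.96 ± 0.69), 1 of 3 of mesoderm (T, 3.48 ± 0.58) and 1 of 4 of trophoblast and simple epithelium (Cdx2, 1.90 ± 0.59). In KO-L3D, 3 of these 4 trophoblast and epithelium markers rose (Elf5, 7.47 ± 1.00, Cdx2, 3.80 ± 0.66, and Krt18, 1.38 ± 0.42), and 2 of 2 of neural crest (Sox10, 3.45 ± 0.95, and Foxd3, 2.49 ± 0.33). There, 1 of 5 neural precursor markers (list median -1.47) and 1 of 3 neuron markers (list median -0.76) fell. Pluripotency markers rose in 2 of 6 in each of KO and KO-L3D (Nanog and Klf4). Klf4 was also the 1 of 6 that rose in KO-S (1.47 ± 0.28) and in KO-S3D (1.24 ± 0.36). KO-L raised Krt8 (1.76 ± 0.35), Krt18 (1.57 ± 0.33) and T (4.96 ± 0.80), KO-S3D raised Foxd3 (2.21 ± 0.39), and in KO-S Sox1 rose (2.35 ± 0.52) and Pax6 fell by 2.51 ± 0.64. The roof plate marker Wnt1 was at 0 in the KO, KO-S and KO-S3D tables. Their part in the values of the 10 genes was not tested.

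In NP, Id3 moved the other way in CSex4. It stood at 6931 and 4482 scaled reads in WT a and b, at 8599 and 7762 in WT c and d, and at 2642 and 2597 in CSex4, with no overlap. The log2 fold change was -1.09 ± 0.32 (adjusted p = 0.0176, the authors' deposited table). Id2, at 2911 and 3191 in WT a and b and 1664 and 1549 in CSex4, just missed the threshold (-0.92 ± 0.31, adjusted p = 0.0524). Id1 (792 and 802 against 763 and 1544) overlapped WT. Set against the same genotype in ESC, the effect of CSex4 differed by 2.65 ± 0.52 in Id3 (adjusted p = 5.30e-05), 2.33 ± 0.53 in Id2 (adjusted p = 8.55e-04) and 2.22 ± 0.64 in Id1 (adjusted p = 0.0163). These 3 of 8 members tested were called, against 4.97% of all genes. Id4 gave -0.07 ± 0.68 (95% interval -1.40 to 1.26), the ESC value being -0.82 and the NP value -0.75.

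Markers of cell state differed in the same CSex4 libraries, where 2.41% of all genes were called in ESC and 5.53% in NP. In ESC CSex4, 3 of 6 pluripotency markers fell (Nanog, Klf4 and Esrrb; list median -1.10) and 3 of 4 markers of trophoblast and simple epithelium rose (Cdx2, Krt8 and Krt18; list median 2.57) in the authors' deposited table. In NP CSex4, 4 of 6 pluripotency markers rose (list median 2.39) and 3 of 5 neural precursor markers fell (list median -1.15). None of these markers was at 0, with mean scaled counts from 3.08 (Elf5, ESC) to 25204 (Pou5f1, ESC). Their part in the Id values was not tested.

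For KO in NP, Id3 and Id4 stood lower than in WT where they stood higher in ESC. NP KO held 3792 and 3191 scaled reads of Id3, below all 4 WT libraries. Against WT c and d the call was made (WT against KO 1.23 ± 0.25, adjusted p = 1.26e-05) and against WT a and b it was not (KO against WT -0.68 ± 0.36, adjusted p = 0.176), both in the authors' deposited tables. Id4 held 368 and 118 in KO, so that 1 KO library overlapped WT b at 347. KO against WT a and b gave -0.95 ± 0.55, which was not called (adjusted p = 0.233, the authors' deposited table). WT c and d (688 and 594) against KO gave 1.61 ± 0.42 (adjusted p = 7.54e-04). Its ratio of group means ran from 1.40 to 2.45 without KO a and 0.80 without KO b. Id1 rose in NP KO, at 2479 and 1837, with both WT pairs: 0.97 ± 0.36 against a and b (763 and 1544, adjusted p = 0.0349) and, as WT against KO, -0.82 ± 0.30 with c and d (1126 and 1295, adjusted p = 0.0204). Without WT b its ratio went from 0.90 to 1.50.

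The KO effect differed between ESC and NP in 4 of 8 members tested, against 14.3% of all genes. ESC exceeded NP by 2.03 ± 0.47 in Id3 (adjusted p = 2.98e-04), 1.88 ± 0.65 in Id4 (adjusted p = 0.0311) and 2.07 ± 0.65 in Msx2 (adjusted p = 0.0162). Id1 differed in the opposite direction, by -1.66 ± 0.60 (adjusted p = 0.0424). Bmp4 gave 0.20 ± 0.56 (95% interval -0.89 to 1.29). For Deltaex4 no member of 8 differed between the cell types (0.00710% of all genes; none at an unadjusted p under 0.05), and the interval for Id3 ran from -1.61 to 0.91.

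**Figure D4:**
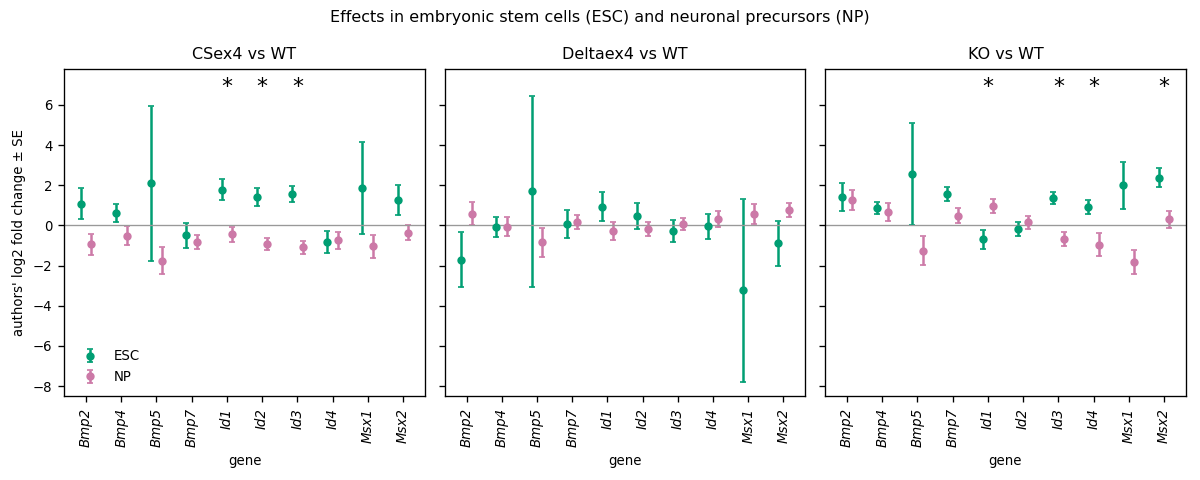
The authors' log2 fold change ± SE of the 10 genes against WT in ESC (green) and NP (pink) for CSex4, Deltaex4 and KO; stars mark genes whose ESC and NP effects differ at an adjusted p under 0.05 over all genes (Bmp5 and Msx1 had too few ESC reads to be tested). Id1, Id2 and Id3 are above 0 in ESC and below 0 in NP for CSex4.

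In NP, neural markers moved with the KO values: 4 of 5 neural precursor markers (list median -2.84) and 3 of 3 neuron markers (list median -3.32) fell in KO against WT, while 4 of 4 markers of trophoblast and simple epithelium rose (list median 2.06), with none at 0, in the authors' deposited table. WT c and d against the same KO libraries gave list medians of 3.72 and 4.51 for the neural precursor and neuron lists. KO-S against KO gave 3.14 and 2.43, and KO-L against KO gave 1.60 and 2.53, although Sox1 fell in KO-L by 2.18 ± 0.38. Endoderm markers rose in 2 of 3 in KO against WT (list median 1.85) and were lower than KO in 3 of 3 in KO-L (list median -2.16) and in KO-S (list median -0.96). Trophoblast and epithelium markers were lower than KO in 3 of 4 in each rescue (list medians -2.35 in KO-L and -0.60 in KO-S). Pluripotency markers were higher in KO-L than in KO in 4 of 6 and lower in 1 (list median 2.13). Among them, Nanog stood 2.93 ± 0.82 and Esrrb 2.59 ± 0.69 above KO. In KO-S 1 was higher and 2 lower (list median -0.55). Of all genes, 21.4% were called in KO against WT, and against KO 32.9% in WT, 24.7% in KO-L and 34.5% in KO-S. The lists are short, so counts of 1 or 2 are not read against these shares. The part of this shift in the values of the 10 genes was not tested.

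Both rescues raised Id3 in NP. KO-L, at 6228 and 4938 scaled reads, rose over KO by 0.67 ± 0.19 (adjusted p = 0.00251) and KO-S, at 5552 and 6083, by 0.74 ± 0.16 (adjusted p = 2.85e-05), in the authors' deposited tables. Their difference was -0.07 ± 0.25 (95% interval -0.55 to 0.42), where in ESC it was 3.84. Id4 rose in KO-S, at 477 and 517 (1.24 ± 0.38, adjusted p = 0.00462), with a ratio of group means of 1.03 that went to 2.08 without KO a and 0.43 without KO b. Id2 fell in KO-L, at 2822 and 1886, by 0.55 ± 0.20 (adjusted p = 0.0285), and stood at 4050 and 4513 in KO-S; the rescues differed by -0.89 ± 0.26 (adjusted p = 0.00976). Bmp2, Bmp7 and Id2 were the 3 of 10 members that differed between the NP rescues, against 10.3% of all genes. From WT c and d, 1 member differed in KO-L (Bmp4; 14.2% of all genes) and 1 in KO-S (Bmp7, by 1.23 ± 0.34, adjusted p = 0.0110; 4.77% of all genes).

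The Msx genes, with the widest Polycomb regions of the set, were low in ESC WT. Msx2 stood at 38.1, 39.9 and 23.8 scaled reads in WT and at 89.3, 296 and 196 in KO, a log2 fold change of 2.38 ± 0.49 (adjusted p = 2.90e-05, the authors' deposited table). The libraries labelled KO-L3D stood at 116 and 773 (2.97 ± 0.62, adjusted p = 5.49e-05); its ratio of group means, 3.71, was 4.51 without library a and 1.77 without b. KO-L, at 235 and 83.8, and CSex4, at 72.8 and 122, were above every WT library without a call (adjusted p = 0.175 and 0.556). KO-S, at 54.0 and 34.8, overlapped WT. KO-S3D held 19.1 and 474, 1 library below all WT and 1 above.

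Msx1 had 0 to 37 reads per ESC library. All 3 KO libraries (8, 18 and 9 reads) exceeded the WT libraries (3, 1 and 5 reads), but the fold change of 1.99 ± 1.17 was not called (adjusted p = 0.256, the authors' deposited table). Both Deltaex4 libraries had 0 reads, which allows up to 3 reads in each.

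In NP, Msx1 stood at 281 and 128 scaled reads in WT a and b, 223 and 179 in WT c and d, and 40.9 and 71.0 in KO, below all of them. It fell in KO by 1.82 ± 0.61 (adjusted p = 0.0167) against a and b, and was higher in WT c and d than in KO by 1.88 ± 0.57 (adjusted p = 0.00468), in the authors' deposited tables. Without WT a the first ratio of group means went from -1.87 to -1.19. KO-L, at 166 and 152, rose over KO by 1.55 ± 0.55 (adjusted p = 0.0231), and KO-S, at 122 and 118, gave 1.15 ± 0.57 (adjusted p = 0.110). Msx2 was not called in KO (985 and 759 against 981 and 492 in WT a and b), and fell in KO-L, at 370 and 507, by 0.99 ± 0.30 (adjusted p = 0.00517). The 2 Msx genes thus stood on opposite sides of KO in KO-L. Msx1 and Id1 were the members called in KO with both pairs of WT libraries.

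Deltaex4 left the 10 genes without a call in both cell types. The largest NP value with a p under 0.05 was Msx2, at 1403 and 991 scaled reads against 981 and 492 (0.76 ± 0.36, unadjusted p = 0.0359 and adjusted p of 1.000 in the authors' deposited table). SEs of the ESC Deltaex4 table were wide, at 0.72 for Id1 and 0.65 for Id2, since 1 library stood at 514 and 694 and the other at 1579 and 2934. Direct comparison of the CSex4 and Deltaex4 effects called no member in ESC (0.0766% of all genes; 1 member at an unadjusted p under 0.05) or NP (1.78% of all genes; 5 members). For Id3 these differences were 1.83 ± 0.70 in ESC and -1.17 ± 0.45 in NP.

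The rest of the pathway was read from lists chosen by function. Of 6 other BMP-responsive regulators, 5 rose in ESC KO (11.0% of all genes, list median 3.18, all tested genes 0.01) in the authors' deposited table. The leading ones were Gata3 (3.27 ± 0.41), Tfap2a (3.23 ± 0.45) and Hand1 (3.13 ± 0.55), transcription factors of surface ectoderm, trophoblast and mesoderm. In KO-L3D 4 of 6 rose (8.22% of all genes), with Hand1 at 6.08 ± 0.36, and in KO-L 2 (1.46%). In KO-S 1 rose (Hand1, 2.28 ± 0.60), where 7.91% of all genes were called in either direction. In CSex4 1 rose (Gata3, 2.48 ± 0.74, with 1.72% of all genes higher), and in Deltaex4 and KO-S3D none (0% and 2.05%). In NP CSex4, 2 of 6 rose, Gata2 (2.13 ± 0.33) and Hand1 (2.50 ± 0.38), where Id3 fell and 5.53% of all genes were called in either direction. In NP KO against WT 3 of 6 rose (11.6% of all genes), among them Gata2 (2.42 ± 0.39) and Dlx5 (2.87 ± 1.11). Lower than KO were 5 of 6 in each of WT (17.3% of all genes), KO-L (13.8%) and KO-S (18.0%).

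Of 16 inhibitors of the pathway, 2 were called in each of ESC KO and KO-L3D, both higher, which is near the shares of all genes called higher there (11.0% and 8.22%). They were the genes of the inhibitory Smads. Smad6 rose in KO (1.68 ± 0.48) and KO-L3D (2.34 ± 0.51), and Smad7 rose in KO (0.84 ± 0.18), KO-L3D (1.89 ± 0.28) and KO-S3D (1.47 ± 0.35), the only inhibitors called in these 3 comparisons in the authors' deposited tables. CSex4 raised Fst (1.73 ± 0.50) and Nbl1 (2.76 ± 0.80), which bind ligands outside the cell, and KO-S raised Chrd (1.85 ± 0.60). In NP KO, 3 of 16 rose (11.6% of all genes): Nbl1 (2.34 ± 0.56), Bmper (1.86 ± 0.46) and the decoy receptor gene Bambi (1.47 ± 0.42).

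In ESC, 1 of 7 receptor genes was called in KO (18.3% of all genes), 2 in KO-S (7.91%), 2 in KO-L3D (18.3%) and 1 in KO-S3D (3.23%). None was called in CSex4, Deltaex4 and KO-L. The list is short, so counts of 1 or 2 are not read against these shares. Of 7 receptor genes, Acvrl1 rose in KO (1.46 ± 0.42), KO-S (1.99 ± 0.64) and KO-L3D (2.22 ± 0.67) of ESC, Bmpr2 fell by 1.10 ± 0.32 in KO-S, Bmpr1a fell by 0.79 ± 0.29 in KO-L3D and Bmpr1b fell by 3.65 ± 1.15 in KO-S3D, in the authors' deposited tables. None of the 4 Smad genes (Smad1, Smad4, Smad5 and Smad9) was called in any of the 7 ESC comparisons. In NP KO against WT, 1 receptor gene was lower (21.4% of all genes called). Against NP KO, 2 were higher in WT (32.9%), 1 was lower in KO-L (24.7%) and 1 was higher in KO-S (34.5%). Smad5 was higher than NP KO in WT (0.71 ± 0.26) and KO-L (0.50 ± 0.20), and Smad9 in KO-S (1.12 ± 0.39). Of 10 other ligands, Bmp8b rose in ESC CSex4 (1.99 ± 0.49) and KO-L3D (2.06 ± 0.40) and in NP KO (3.36 ± 0.61), there with Bmp3 (2.60 ± 0.76). Of the 3 E protein genes whose products Id proteins bind, none was called in ESC, and in NP KO Tcf4 fell by 1.50 ± 0.38.

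The genes most like 3 of the members were taken by the Pearson correlation of the authors' log2 fold changes over the 13 comparisons, among about 10237 genes with a mean scaled count of at least 100 in each. These 13 values share control libraries, so the correlations are descriptions. For Id1 they were Ptpn14 (r = 0.897), Efnb2 (0.891) and Ghr (0.878), with 10.7% of the genes above 0.5. Bmp4 was most like Gpaa1 (0.931), Bloc1s4 (0.927) and Wdr45 (0.924), with 15.7% of the genes above 0.5. Msx2 was most like Tnfrsf21 (0.906), Cfap36 (0.871) and Sgcb (0.864), with 6.21% above 0.5. No other member was among these 9 genes.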

How the data were processed

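RNA-seq libraries (32) and ChIP-seq libraries (55) were grouped by their titles. Per the submitters' processing notes, the tools were TopHat, Bowtie, DESeq2 and DiffBind and the builds mm10 and dm3; versions and annotation are not given in the sources used here. The authors deposited 13 tables of comparisons, named as paired, and 2 region lists. Per the file headers and their values, the authors deposited baseMean, a signal: scaled reads averaged over a comparison's libraries. Fold changes and SEs deposited by the authors are on the log2 scale. Their ratio is the deposited score, and a p-value with its adjusted form follows, per the file headers. The value of each deposited region is of an unstated kind and was used only to describe regions. A design for counts had been allowed for; the files hold statistics, so none was refitted.

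A gene with 1 read in a single library gives what a read of that library adds to baseMean. Each member's baseMean is a sum of such steps, and the whole numbers of reads that satisfy all 7 ESC or 6 NP tables at 15 significant digits were searched; each pair of gene and cell type had 1 solution. This was chosen after seeing the data. The sign of the authors' fold change gave each library its side, and the 32 libraries found match the labelled number in each group. In the 5-library ESC tables the fold changes of genes with reads in WT c alone were near 0, while the ratios of group means use all 3 WT libraries and no pairing. No column of per-sample values was left out.

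Differences between comparisons were (first minus second) over the root of the summed squared SEs, two-sided, normal, with Benjamini-Hochberg adjustment over all genes with a baseMean of at least 10 in both. The method was tested on simulated data for CSex4 and for KO in ESC against NP, which share no libraries. Noise was drawn there from the deposited SEs, so the simulation could not test those SEs or the effect of shared libraries. Named genes were all 10 members, Suz12, up to 3 called genes with the smallest adjusted p per list, comparison and direction, the 3 most alike genes of Id1, Bmp4 and Msx2, and marker genes; Ddx3y was chosen after its values were seen. Members and lists were chosen with earlier results of these data known. Alternatives were an adjusted p under 0.01, adjustment over every gene, recentring on genes with a baseMean of at least 100, no baseMean minimum, other region windows and leaving out libraries. Python 3.11.15, numpy 2.4.6, pandas 2.3.3, scipy 1.17.1 and numba 0.67.0 were used.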

Additional observations from a re-analysis of the deposited data

Results flagged for a closer look

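The effect of CSex4 against WT differed between ESC and NP, by the test of the difference itself, in Id1 (2.22), Id2 (2.33) and Id3 (2.65, log2, ESC minus NP). The effect of KO against WT differed in Id1 (-1.66), Id3 (2.03), Id4 (1.88) and Msx2 (2.07).

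Among the 4 NP WT libraries, the only group large enough to look for a library far from the others, 3 of the 10 genes had one: Bmp5 at 250.7 scaled reads in library b, Msx2 at 491.6 in the same library, and Bmp7 at 1764 in library a. Chance gives about 1 such gene in 20 (10 were looked at). The NP references for CSex4, Deltaex4 and KO are these libraries.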

How the results depend on the processing

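At an adjusted p under 0.01, the members called went from 3 to 0 in ESC CSex4, from 5 to 3 in ESC KO, from 1 to 0 in NP CSex4 and from 3 to 0 in NP KO. Those that differed between ESC and NP in KO went from 4 to 1, between KO-L3D and KO-L from 2 to 1, between KO-S3D and KO-S from 1 to 0, and between NP KO-S and WT from 1 to 0. Recentring the fold changes raised the members that differed between ESC KO-S and KO from 1 to 2. With no minimum of baseMean, the count for KO-L3D and KO-L was 1 and that for KO-S3D and KO-S was 0. The remaining 71 settings of these counts kept them within 1.5 times. Without the replicate block, as the ratio of group means, 37 of 37 called values kept their sign, and 36 did whichever library was left out. In those 36 the 2 groups did not overlap, so neither step could have turned their sign, and this does not test the calls. The other, Id2 in ESC KO-L3D, turned to -0.54 at the lowest and stood at 1.02 at the highest. No paired analysis was possible because the recovered libraries carry no replicate numbers; refits without each replicate, and with and without the block, were not run since reads were recovered for these genes alone. Depth limits Bmp5 and Msx1 in ESC, at 0 to 9 and 0 to 37 reads.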
